A study of Mus musculus with 4 samples.

Results

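The keratins of simple epithelia, *Krt7*, *Krt8*, *Krt18* and *Krt19*, the claudins *Cldn3*, *Cldn4*, *Cldn6* and *Cldn7*, and the epithelial regulators *Esrp1* and *Grhl2* were measured in mouse embryonic stem cells (ESCs) differentiated towards cardiomyocytes. These 10 genes were taken by their symbols from the 24637 genes of the expression table, and each symbol matched 1 gene. The groups were WT and *Taf4a*-/-, where *Taf4a* encodes Taf4, a core subunit of the general transcription factor TFIID. The ESC lines were derived on feeder cells from blastocysts of *Taf4a*+/- crosses, so the null allele, which lacks part of the gene, is carried by every cell of a *Taf4a*-/- line, and each genotype was represented by 2 independent lines. All 4 cultures were grown as embryoid bodies for 5 days in serum-containing medium and then for 9 days on gelatin-coated plates, and messenger RNA of the whole culture was sequenced. The comparison addressed how gene expression in differentiated cultures depends on Taf4.

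Simple epithelia are single sheets of cells. Their intermediate filaments are built from pairs of a type II keratin, such as Krt7 or Krt8, and a type I keratin, such as Krt18 or Krt19, and Krt8 with Krt18 is the first pair made in the mouse embryo. Claudins are membrane proteins with 4 membrane-spanning segments that form the strands of tight junctions and set which ions pass between cells. Esrp1 is an RNA-binding protein that directs epithelial patterns of splicing, and Grhl2 is a transcription factor that activates genes of epithelial junctions, claudins among them. Zeb1, Zeb2, Snai1 and Snai2 are known to repress epithelial genes through E-boxes of the sequence CACCTG or its reverse complement CAGGTG.

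The promoters of 5 of the genes are shown because they include the keratin pair that held its level, the keratin with the largest fall and the 2 most abundant claudins. Each is the 250 bases before the RefSeq gene start, from build GRCm38.p6, written 5′ to 3′ on the strand of the gene with E-boxes in capitals. They lie at chr15:101412153-101412402 on the plus strand for *Krt7*, chr15:102004343-102004592 on the minus strand for *Krt8*, chr15:102027966-102028215 on the plus strand for *Krt18*, chr5:134946935-134947184 on the minus strand for *Cldn4* and chr17:23679115-23679364 on the plus strand for *Cldn6*.
Krt7: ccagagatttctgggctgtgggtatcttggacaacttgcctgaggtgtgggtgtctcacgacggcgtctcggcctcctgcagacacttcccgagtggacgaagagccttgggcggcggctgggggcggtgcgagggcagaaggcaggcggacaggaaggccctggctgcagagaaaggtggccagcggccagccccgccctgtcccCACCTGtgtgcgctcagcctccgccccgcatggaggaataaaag
Krt8: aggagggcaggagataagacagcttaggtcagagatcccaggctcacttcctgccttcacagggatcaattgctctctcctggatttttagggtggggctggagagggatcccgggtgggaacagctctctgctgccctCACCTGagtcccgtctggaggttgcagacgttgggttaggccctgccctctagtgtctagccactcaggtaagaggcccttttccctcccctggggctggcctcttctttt
Krt18: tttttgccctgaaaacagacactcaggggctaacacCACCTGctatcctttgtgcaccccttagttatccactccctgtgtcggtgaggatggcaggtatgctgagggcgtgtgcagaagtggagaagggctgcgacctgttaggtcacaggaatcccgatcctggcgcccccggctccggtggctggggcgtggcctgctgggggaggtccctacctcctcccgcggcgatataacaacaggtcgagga
Cldn4: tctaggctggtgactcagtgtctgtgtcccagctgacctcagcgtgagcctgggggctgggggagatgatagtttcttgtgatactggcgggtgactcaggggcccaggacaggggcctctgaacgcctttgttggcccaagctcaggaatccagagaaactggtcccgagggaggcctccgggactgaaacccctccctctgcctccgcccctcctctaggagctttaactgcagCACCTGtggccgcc
Cldn6: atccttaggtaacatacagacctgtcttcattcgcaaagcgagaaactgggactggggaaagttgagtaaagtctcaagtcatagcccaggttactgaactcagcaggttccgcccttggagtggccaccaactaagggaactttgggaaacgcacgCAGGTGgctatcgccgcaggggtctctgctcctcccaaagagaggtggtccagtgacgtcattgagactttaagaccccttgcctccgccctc

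The E-box began 44 bases before the start of *Krt7*, 111 bases before that of *Krt8*, 214 bases before that of *Krt18*, 14 bases before that of *Cldn4* and 93 bases before that of *Cldn6*. *Cldn4* and *Cldn6* each held a second E-box after the start, CAGGTG in both, at offsets of 11 and 40 bases. RefSeq windows of 250 bases before to 50 bases after the start were matched for 7 of the 10 genes, leaving *Krt19*, *Esrp1* and *Grhl2*, and *Cldn7* had 2 windows. An E-box on either strand was found in 7 of these 8 windows, that is in at least 1 window of each of the 7 genes, and in 20.2% of all 32851 windows. Of 2 other motifs searched on both strands, CCGCCC was found in 5 of the 8 windows against 35.7% of all windows, and TATAAA was found in 1, that of *Krt8*, in overlapping copies on both strands, against 13.6%. Neither motif overlapped an E-box in these windows, and the matches describe the letters only. Because each of the 7 genes held an E-box, its presence cannot separate genes whose RNA fell from *Krt8* and *Krt18*, whose RNA did not change detectably. The part of the E-boxes in these values was not tested.

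The libraries held between 21732746 and 27733034 reads on genes, so *Cldn3*, the gene of the 10 with the fewest counts, still rested on at least 102 reads. Values are normalized counts, reads divided by 1 size factor per library, and limma was fitted on log2(normalized count + 1) to the 16926 genes whose mean reached 10. Calls were made where the p adjusted by Benjamini and Hochberg was under 0.05. With 2 lines against 2, an exact permutation test cannot give a two-sided p under 0.33, and limma borrows its estimate of the spread from all genes. Counts of the targeted gene, *Taf4a*, were higher rather than lower in the libraries labelled *Taf4a*-/-, at 1722 and 1799 normalized counts against 889 and 678 in WT (log2 fold change 1.18, limma adjusted p = 0.00569). These counts cover the whole gene and so do not show whether the deleted exons were missing, and every direction below rests on the genotypes as labelled. Of 12 cardiomyocyte markers, 11 were lower in *Taf4a*-/- and none was higher, their summed level was 30673 and 34171 in WT against 9216 and 10132 in *Taf4a*-/-, and no marker was at 0 in both libraries of either genotype.

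Of the 10 genes, 7 were below WT in both libraries labelled *Taf4a*-/- and passed the test as lower, none was higher and 3 were not called. *Krt7*, *Krt19*, all 4 claudins and *Esrp1* fell, whereas *Krt8*, *Krt18* and *Grhl2* did not pass the test. Among all genes tested, 17.3% were called lower and 11.3% higher. Both *Taf4a*-/- libraries lay below both WT libraries for the same 7 genes, a separation seen for 36.6% of all genes tested. All 10 fitted changes were below 0, so none was higher at an unadjusted p under 0.05 either, and limma's voom on the recovered reads likewise gave 7 lower and 0 higher. The median log2 fold change of the 10 genes was -0.99, beside -0.01 over all genes tested. Because whole cultures were sequenced, fewer epithelial cells and less RNA per epithelial cell cannot be told apart. The number of calls moved most with the WT line of replicate 2: without it 2 of the 10 genes were called lower, *Krt7* and *Cldn3*, and when the variance trend was left out 4 were called, *Krt7*, *Cldn3*, *Cldn6* and *Esrp1*.

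**Figure D1:**
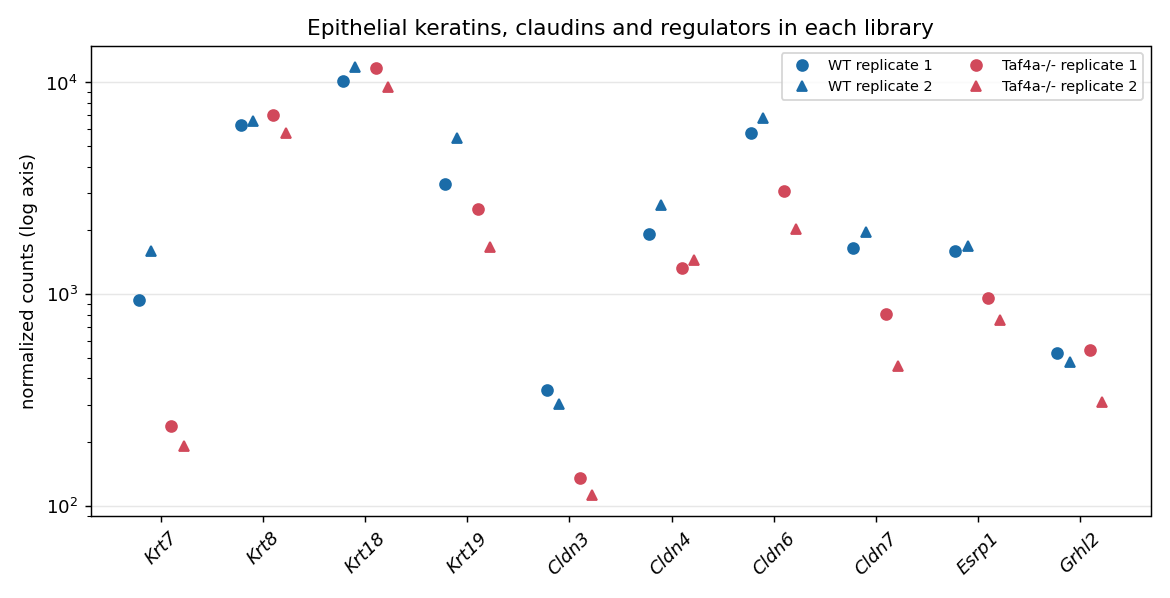
Normalized counts (log axis) of the 10 genes in each of the 4 libraries, with blue points for WT, red points for *Taf4a*-/-, circles for replicate 1 and triangles for replicate 2. The red points lie below the blue points for 7 genes and among them for *Krt8*, *Krt18* and *Grhl2*.

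The type II keratin *Krt7* (ENSMUSG00000023039, NCBIM37 chr15:101241474-101260744, plus strand), which marks ducts and other glandular linings, changed most. It had 943 and 1596 normalized counts in WT and 239 and 191 in those labelled *Taf4a*-/-. Both WT libraries were high, both *Taf4a*-/- libraries were low, and the gap between the genotypes was wider than the spread within either. The fall was 5.72-fold (95% interval 3.60 to 9.08, log2 fold change -2.52, standard error 0.27, adjusted p = 0.00313 from limma).

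The other type II keratin, *Krt8* (ENSMUSG00000049382, chr15:101827142-101834773, minus strand), is the partner shared by most simple epithelia. It had 6267 and 6584 normalized counts in WT and 7030 and 5757 in those labelled *Taf4a*-/-. The 2 *Taf4a*-/- libraries lay on either side of the WT pair. The log2 fold change was -0.01 (95% interval -0.35 to 0.32, adjusted p = 0.948 from limma), an interval that leaves room for a rise or a fall of about the spread between the *Taf4a*-/- lines. The sign of so small a value turned with the scaling, to 0.05 with equal library totals.

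*Krt18* (ENSMUSG00000023043, chr15:101858647-101862457, plus strand), the type I partner of Krt8, is a neighbour of *Krt8*, with 23.9 kb between the gene starts. Its values were 10171 and 11792 normalized counts in WT and 11714 and 9546 in those labelled *Taf4a*-/-, with the groups overlapping. The log2 fold change was -0.05 (95% interval -0.43 to 0.33, adjusted p = 0.831 from limma). *Krt7* lies on the same chromosome, 593 kb from *Krt8* between starts.

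*Krt19* (ENSMUSG00000020911, chr11:100002124-100009979, minus strand), the small type I keratin that lacks most of the tail domain, had 3300 and 5479 normalized counts in WT and 2536 and 1671 in those labelled *Taf4a*-/-. Both *Taf4a*-/- libraries lay below both WT libraries, but the WT lines also differed from each other, with replicate 2 the higher. Its fitted log2 change was -1.05 with a standard error of 0.29 (limma adjusted p = 0.0421). The call was lost without WT replicate 2 (log2 fold change -0.68, adjusted p = 0.181) and without *Taf4a*-/- replicate 2 (-0.75, adjusted p = 0.119), and with a replicate block (adjusted p = 0.0507), all from limma.

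Levels were compared between the keratins as normalized counts per kb of annotated exon. In WT the order of the levels was *Krt18*, with 7844 ± 819 (SD, n = 2) normalized counts per kb, *Krt8* with 3560 ± 124, *Krt19* with 2366 ± 831 and *Krt7* with 180 ± 65.5. *Krt8* and *Krt19* were the closest neighbours, and their WT ranges did not overlap on this length. Per kb of main coding transcript they did, with 2094 and 3476 for *Krt19* in WT against 3472 and 3648 for *Krt8*. In *Taf4a*-/- the order was the same, with 7593 ± 1095, 3542 ± 499, 1134 ± 330 and 30.5 ± 4.77 normalized counts per kb. Much of the exon length of *Krt7* lies outside its main coding transcript, and per kb of that transcript its level would be 1.72 times as high in every library.

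Ratios between the keratins were taken within each library. The level of *Krt8* per kb was 0.478 and 0.433 of that of *Krt18* in WT, and 0.465 and 0.468 of it in those labelled *Taf4a*-/-. This ratio of type II to type I keratin lay within the WT range in both *Taf4a*-/- libraries. *Krt7* was at 0.0385 and 0.0621 of the level of *Krt8* in WT, and at 0.00870 and 0.00851 in those labelled *Taf4a*-/-. *Krt19* was at 0.245 and 0.351 of the level of *Krt18* in WT, and at 0.163 and 0.132 in those labelled *Taf4a*-/-. The share of the 4 keratins held by *Krt8* and *Krt18* together was therefore higher in both *Taf4a*-/- libraries, while the summed level of the 4 overlapped between the genotypes, with 12649 and 15251 normalized counts per kb in WT and 13663 and 10936 in those labelled *Taf4a*-/-.

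**Figure D2:**
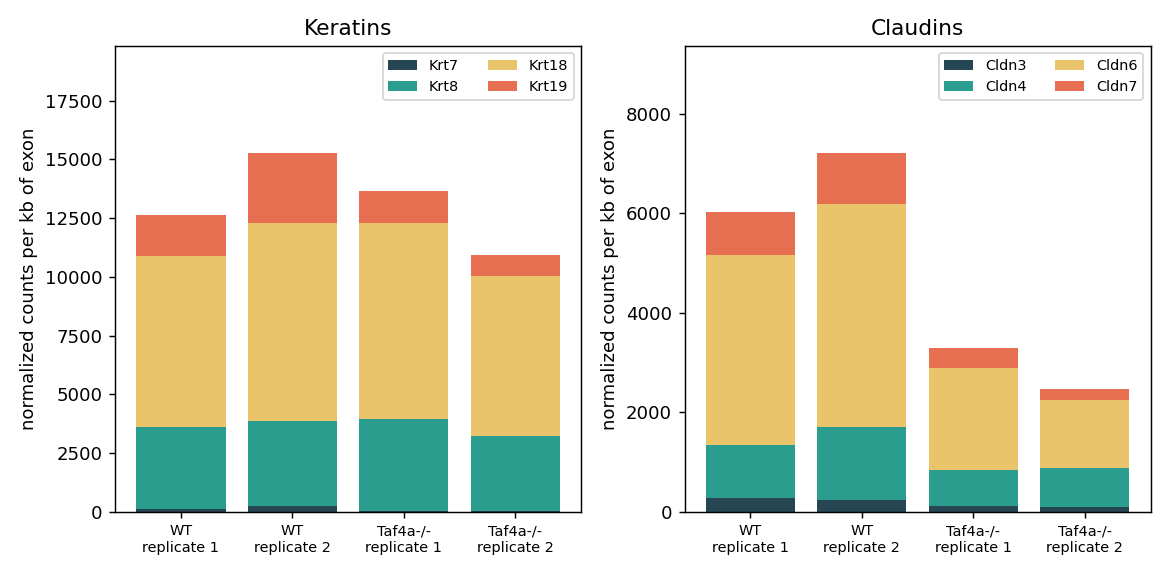
Stacked levels, in normalized counts per kb of exon, of the 4 keratins (left) and the 4 claudins (right) in each library, with 1 bar per library from 0. The keratin bars overlap in height between the genotypes and consist mostly of *Krt18* and *Krt8*, whereas both claudin bars of *Taf4a*-/- are shorter than both WT bars, with *Cldn6* the largest segment in all 4.

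All 4 claudins were lower in both libraries labelled *Taf4a*-/-. *Cldn6* (ENSMUSG00000023906, chr17:23816332-23819413, plus strand), a claudin of embryonic epithelia, was the most abundant of them. It had 5765 and 6762 normalized counts in WT and 3072 and 2036 in those labelled *Taf4a*-/-, and the groups were well apart. The fall was 2.50-fold (95% interval 1.75 to 3.56, log2 fold change -1.32, standard error 0.21, adjusted p = 0.00871 from limma).

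*Cldn4* (ENSMUSG00000047501, chr5:135420996-135422804, minus strand), which tightens the junction to sodium ions, had 1914 and 2632 normalized counts in WT and 1329 and 1446 in those labelled *Taf4a*-/-. This was the smallest of the 7 called differences, and the WT lines differed from each other by 0.46 on the log2 scale. By limma it fell by 0.69 on the log2 scale, with a standard error of 0.17 (adjusted p = 0.0321). It was not called without WT replicate 2 (log2 fold change -0.47, adjusted p = 0.0670), without *Taf4a*-/- replicate 1 (-0.63, adjusted p = 0.122) or without *Taf4a*-/- replicate 2 (-0.76, adjusted p = 0.0694), all from limma.

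*Cldn3* (ENSMUSG00000070473, chr5:135462084-135463342, plus strand), a sealing claudin, lies beside *Cldn4*, with 39.3 kb between the starts. It was the least abundant by count, with 353 and 302 normalized counts in WT and 136 and 113 in those labelled *Taf4a*-/-. Within each genotype the lines were close and the genotypes were far apart. Its fitted log2 change was -1.39 with a standard error of 0.22 (limma adjusted p = 0.00837), a 2.62-fold fall with a 95% interval of 1.82 to 3.79.

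*Cldn7* (ENSMUSG00000018569, chr11:69778281-69781387, plus strand), a claudin that is also found along the lateral membrane outside tight junctions, had 1660 and 1974 normalized counts in WT and 808 and 458 in those labelled *Taf4a*-/-. Both *Taf4a*-/- libraries were low, and they differed from each other by 0.82 on the log2 scale. By limma it fell by 1.57 on the log2 scale, with a standard error of 0.27 (adjusted p = 0.0111). Without WT replicate 2 it was -1.45 and not called (adjusted p = 0.0881 from limma), and *Cldn6* was then not called either (log2 fold change -1.20, adjusted p = 0.0718 from limma).

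Per kb of exon, the order of the claudins in WT was *Cldn6* with 4159 ± 468 (SD, n = 2) normalized counts per kb, *Cldn4* with 1256 ± 281, *Cldn7* with 933 ± 114 and *Cldn3* with 260 ± 28.6. *Cldn4* and *Cldn7* differed by less than the sum of their SDs, and per kb of its main coding transcript the level of *Cldn7* would be 1.46 times as high, 1243 and 1479 in WT, which turns their order. Summed over the 4 genes, the level was 6019 and 7199 normalized counts per kb in WT and 3297 and 2476 in those labelled *Taf4a*-/-. *Cldn6* made up 63.6% and 62.4% of this sum in WT, and 61.9% and 54.6% in those labelled *Taf4a*-/-. The share of *Cldn4* was 17.6% and 20.2% in WT and 22.3% and 32.3% in those labelled *Taf4a*-/-, so both *Taf4a*-/- lines were above WT, replicate 2 by the most. Whether the claudins differed from one another in their response was not tested.

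*Esrp1* (ENSMUSG00000040728, chr4:11259080-11313930, minus strand), the splicing regulator, had 1590 and 1685 normalized counts in WT and 958 and 758 in those labelled *Taf4a*-/-. The WT lines were nearly alike and both *Taf4a*-/- lines lay far below them. Its fitted log2 change was -0.94 with a standard error of 0.15 (limma adjusted p = 0.00932), or 1.92-fold with a 95% interval of 1.48 to 2.49. Without WT replicate 2 it was -0.90 with an adjusted p of 0.0601 from limma.

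*Grhl2* (ENSMUSG00000022286, chr15:37162791-37293324, plus strand), the transcription factor, had 527 and 477 normalized counts in WT and 542 and 311 in those labelled *Taf4a*-/-. Replicate 1 of *Taf4a*-/- was the highest of the 4 libraries and replicate 2 the lowest, so the groups overlapped. The log2 fold change was -0.29 (95% interval -0.96 to 0.38, adjusted p = 0.461 from limma). An interval this wide includes the size of the fall of *Esrp1*, and the difference between the 2 genes was not tested. *Esrp1* stood at 2.64 and 3.09 times the level of *Grhl2* per kb in WT and at 1.54 and 2.13 times in those labelled *Taf4a*-/-. Per kb of main coding transcript the level of *Esrp1* would be 1.63 times as high and that of *Grhl2* 1.11 times. These multiples would then be larger in every library.

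**Figure D3:**
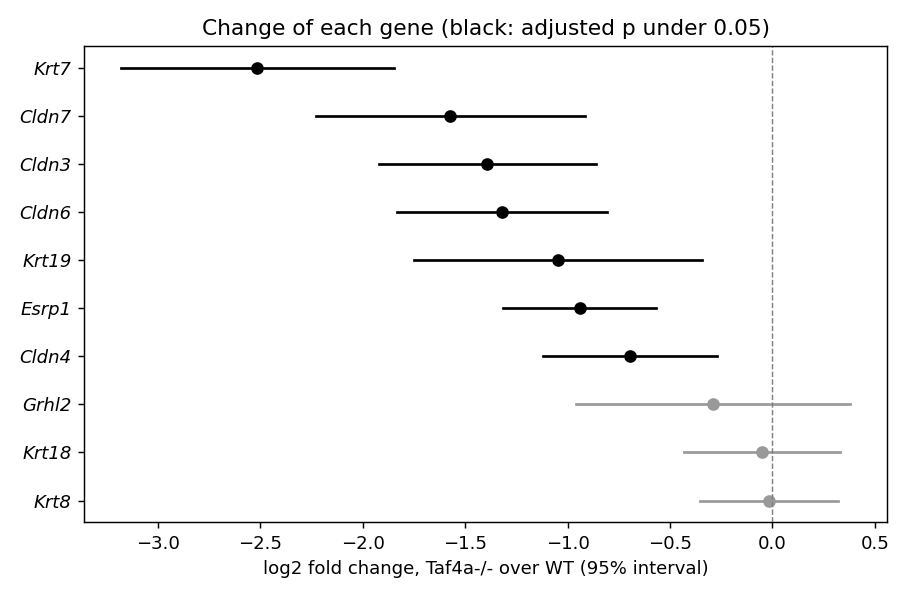
Log2 fold change of each gene, *Taf4a*-/- over WT, as a point with its 95% interval from limma, in black where the adjusted p was under 0.05 and in grey otherwise. *Krt7* lies farthest left with -2.52, the 4 claudins lie between -1.57 and -0.69, and the intervals of *Krt8*, *Krt18* and *Grhl2* cross 0.

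Within the genotypes, *Taf4a*-/- replicate 2 was lower than replicate 1 for 9 of the 10 genes, *Cldn4* being the exception, and WT replicate 2 was higher than replicate 1 for 8. The largest differences between the *Taf4a*-/- lines were those of *Cldn7* (-0.82 on the log2 scale, replicate 2 minus replicate 1) and *Grhl2* (-0.80). *Cldn7* and *Krt19* lie on chromosome 11, where the median difference between the *Taf4a*-/- lines was -0.18 over 1166 genes, against 0.00 over 13864 genes of all chromosomes with a mean of at least 50. Its part in their values was not tested. The library kit did not mark strand, and 3 of the genes overlap a gene on the opposite strand. *Grhl2* shares 274 bases with *Gm16136*, with 124 and 55.1 normalized counts in WT and 25.5 and 33.2 in those labelled *Taf4a*-/-, while the genes opposite *Esrp1* and *Cldn3* stayed under 10 in every library. *Grhl2* also overlaps *Gm16137* on its own strand and the pseudogene *Gm16138*, both at most 1.11 in any library.

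Genes with the most similar profile to those of the 10 were found by the root mean square difference of centred log2 values over the 4 libraries, among genes with a mean of at least 50. *Arhgef16*, which encodes a guanine nucleotide exchange factor, was nearest to *Cldn6*, with a difference of 0.0101 and values of 627, 721, 330 and 219 normalized counts in WT and *Taf4a*-/- replicates 1 and 2, respectively. *Scel*, encoding sciellin, a protein of epithelial cells, was nearest to *Krt7* (0.0795), with 230, 371, 49.9 and 40.9 normalized counts. *Lama3*, encoding a laminin chain of epithelial basement membranes, was nearest to *Esrp1* (0.0296). Other nearest genes were *Flot2* to *Krt8* (0.0132), *Txndc17* to *Krt18* (0.0110), *Mxra7* to *Krt19* (0.0470), *Acss3* to *Cldn3* (0.0505), *Myl6* to *Cldn4* (0.0150) and *Ppm1e* to *Grhl2* (0.0354). With 4 libraries many genes have like profiles, and the small values for *Krt8* and *Krt18* are those of genes that hardly moved.

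Most of the tested members in the rest of the claudin family fell. Of 19 other claudins looked for, 16 were in the table and 9 were abundant enough to be tested, of which 6 were lower and none was higher. Their median log2 fold change was -2.25, also with *Cldn18* at its bound given below. The minimum of 10 was set on the mean of all 4 libraries. *Cldn1*, *Cldn8*, *Cldn11* and *Cldn18*, with *Taf4a*-/- means under 10, reached it only through WT. *Cldn20* and *Cldn22*, higher in both *Taf4a*-/- libraries than in either WT library, fell under it and were not tested. The counts and the median therefore partly follow from this selection. *Cldn2*, which forms pores for cations, had 618 and 276 normalized counts in WT and 30.3 and 32.1 in those labelled *Taf4a*-/- (log2 fold change -3.69, adjusted p = 0.00322 from limma). *Cldn8* had 75.4 and 64.4 against 0.979 and 4.42, and *Cldn1* 70.1 and 54.0 against 7.83 and 11.1 (both adjusted p under the threshold, 0.00553 and 0.00845 from limma). *Cldn18*, a claudin of stomach and lung, had 25.4 and 89.4 normalized counts in WT and was at or under 3 reads in both *Taf4a*-/- libraries, which makes it at least 18.4-fold lower on the means, with a floor of 3 reads per library at the mean value of a read in those 2 libraries. *Cldn12*, named after its values were seen as the claudin of this list with the most counts, was not called, with 2135 and 2370 normalized counts in WT and 2222 and 1815 in those labelled *Taf4a*-/-. The smallest of these 6 falls, that of *Cldn23*, was -1.61 on the log2 scale, beside -1.57 for *Cldn7*, the largest among the 4 claudins described above. The 6 were picked by passing the test, which leaves out small changes. The 3 tested claudins that did not pass, *Cldn5*, *Cldn9* and *Cldn12*, were at 0.92, -0.20 and -0.16. Whether the other claudins differed from these 4 was not tested.

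Of 22 other keratins, 19 were in the table and 12 were tested, with 8 lower, 1 higher and a median log2 fold change of -2.23. Among those called, *Krt5*, *Krt6a*, *Krt13*, *Krt23* and *Krt80* reached the minimum mean of 10 only through WT, and *Krt42* only through *Taf4a*-/-. These counts and this median therefore also partly follow from the selection. *Krt5*, the type II keratin of basal cells of stratified epithelia, fell from 156 and 69.6 normalized counts in WT to 3.92 and 1.11 in those labelled *Taf4a*-/- (log2 fold change -5.03, adjusted p = 0.00426 from limma). *Krt20*, a type I keratin of gut epithelium, fell from 384 and 1162 to 59.7 and 43.1 (log2 fold change -3.69). *Krt15* fell from 282 and 213 to 24.5 and 26.5, and *Krt23* from 21.0 and 83.1 to 6.85 and 1.11. *Krt42*, the single keratin that was higher, rose from 3.51 and 3.12 normalized counts to 21.5 and 24.3 (log2 fold change 2.47, adjusted p = 0.0166 from limma). When genes with a mean under 50 were left out, 3 of the other keratins and 2 of the other claudins were called lower, since fewer were tested. Among the other keratins, the single call of a rise was lost without WT replicate 2, without *Taf4a*-/- replicate 1 and without *Taf4a*-/- replicate 2, and the number lower was 4 without WT replicate 1, 3 without WT replicate 2 and 4 without *Taf4a*-/- replicate 2.

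Of 20 other tight junction and cell polarity genes tested, 2 were lower, 2 were higher and 16 were not called, with a median of 0.08. Counts of every list here are to be read beside the 17.3% and 11.3% of all genes called lower and higher. *Ocln*, encoding the strand protein occludin, fell from 1156 and 1473 normalized counts to 586 and 405 (log2 fold change -1.42, adjusted p = 0.00821 from limma). *Cgn*, encoding cingulin, fell from 1338 and 1727 to 1038 and 805 (-0.73), whereas its paralogue *Cgnl1* rose from 5046 and 3817 to 7519 and 8796 (0.89). *Jam2*, a junctional adhesion molecule that is also made by endothelial cells, rose from 175 and 118 to 371 and 326 (1.27). Without WT replicate 2, 0 of the 20 were called in either direction, without *Taf4a*-/- replicate 1 it was 5 lower and 1 higher, and without *Taf4a*-/- replicate 2 it was 1 lower and 1 higher.

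Of 18 genes of epithelial adhesion and of the epithelial cell surface, 12 were lower and none was higher, and the median was -0.90 on the log2 scale. *Prss8*, encoding a membrane-anchored serine protease, fell from 1087 and 1186 normalized counts to 327 and 242 (log2 fold change -2.01, adjusted p = 0.00217 from limma). *Ppl*, encoding the desmosomal linker periplakin, fell from 455 and 360 to 150 and 85.2 (-1.83), and the mucin *Muc1* from 71.9 and 52.0 to 21.5 and 15.5 (-1.69). Without WT replicate 2, 3 of the 18 were called lower, without *Taf4a*-/- replicate 2 it was 6, and without the variance trend it was also 6.

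**Figure D4:**
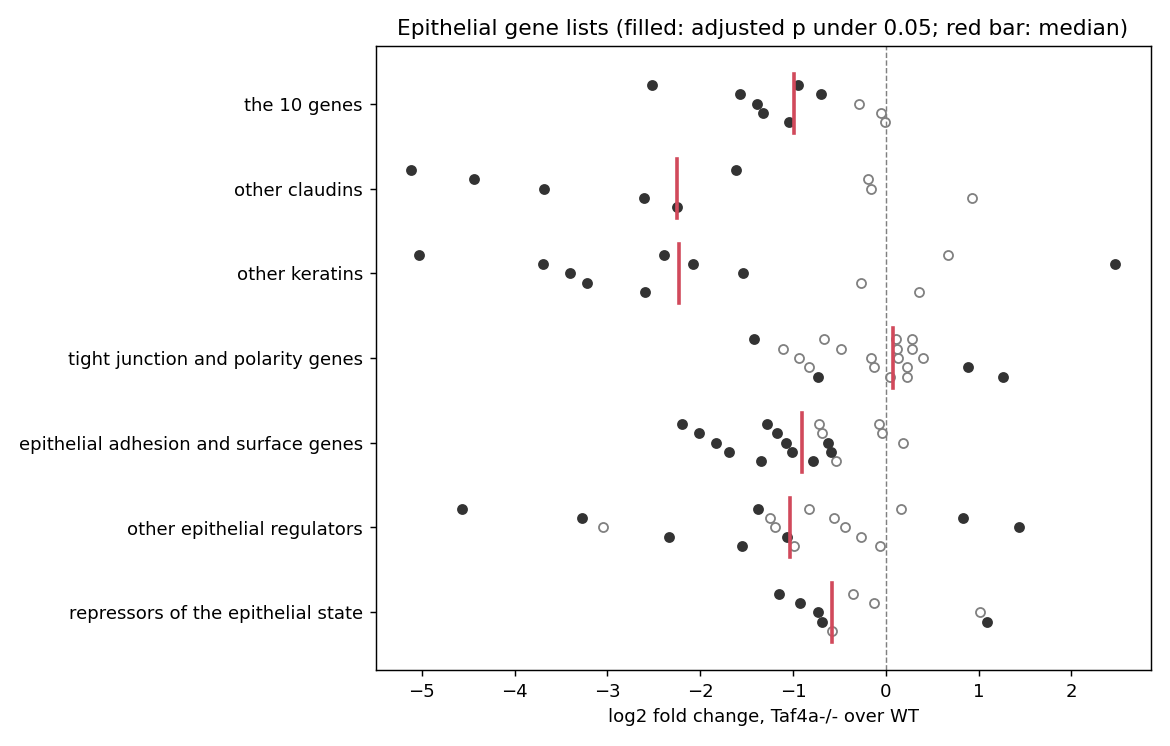
Log2 fold change, *Taf4a*-/- over WT, of each tested gene in the 10 genes and in 6 lists of related genes, with filled points for an adjusted p under 0.05 from limma, open points for genes not called and a red bar at each median. The medians of the other claudins (-2.25) and other keratins (-2.23) lie lowest and that of the tight junction and polarity genes (0.08) lies at 0. Several called genes among the other claudins and other keratins reached the minimum mean of 10 only through the genotype with the higher level. So did *Ehf* among the other epithelial regulators.

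Other transcription factors and splicing regulators of epithelia, 18 genes of which 3 were found under an older symbol, gave 6 lower and 2 higher, with a median of -1.03. Without WT replicate 2, 3 were lower, as also without the variance trend, and without either *Taf4a*-/- line 1 was higher. *Trp63*, encoding p63, the regulator of stratified epithelia, fell from 439 and 277 normalized counts to 30.3 and 40.9 (log2 fold change -3.27, adjusted p = 0.00251 from limma). *Ehf*, an ETS factor of epithelia, fell from 102 and 274 to 14.7 and 2.21 (-4.57), and the forkhead factor *Foxa1* from 887 and 1282 to 471 and 282 (-1.55). Of the relatives of the 2 regulators described above, *Grhl3* was lower (769 and 501 normalized counts against 231 and 246), *Grhl1* was not called (113 and 172 against 65.6 and 74.1, adjusted p = 0.0550 from limma), and *Esrp2*, the paralogue of *Esrp1*, was not called (453 and 555 against 455 and 302, adjusted p = 0.219 from limma). These relatives, and *Tfap2c* and *Elf3*, which were the 2 that rose (log2 fold changes 1.44 and 0.83), were named after their values were seen.

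Repressors of the epithelial state gave 4 lower and 1 higher of 9, with a median log2 fold change of -0.58. Over all genes tested, 17.3% were called lower and 11.3% higher. *Zeb1* fell from 2901 and 3280 normalized counts to 1509 and 1755 (log2 fold change -0.92, adjusted p = 0.00677 from limma) and *Zeb2* from 3047 and 2418 to 1549 and 1723 (-0.73). *Foxc2*, a mesenchymal forkhead factor, fell from 345 and 208 to 116 and 125 (-1.15), and *Prrx1*, a homeobox factor of mesenchyme, rose from 983 and 1058 to 2092 and 2250 (1.09). Quantile normalization gave 2 lower, leaving out *Taf4a*-/- replicate 1 gave 1 lower, and leaving out WT replicate 1 gave 2 lower and 2 higher. Of the repressors known to act through sequences of this E-box type, whose binding was not measured here, *Zeb1*, *Zeb2* and *Snai2* (915 and 910 against 491 and 650) were lower and *Snai1* was not called (667 and 601 against 544 and 620).

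The epithelial genes were measured in cultures whose markers of other cell types also differed between the genotypes. Of 12 visceral endoderm markers, genes of an epithelium that also makes keratins and claudins, 11 were lower and none was higher, and their summed level was 107063 and 91779 normalized counts in WT against 6579 and 4832 in those labelled *Taf4a*-/-. *Afp*, the most abundant of them, went from 42655 and 36728 to 152 and 140 normalized counts. Of 14 pluripotent cell markers, 12 were higher and none was lower, with sums of 13693 and 6663 in WT and 29213 and 30714 in those labelled *Taf4a*-/-. ESCs and early epiblast cells are themselves epithelial and make Cldn6 and E-cadherin. *Cdh1*, which encodes E-cadherin, was lower, with 7370 and 8936 normalized counts in WT and 6032 and 4621 in those labelled *Taf4a*-/- (log2 fold change -0.62, adjusted p = 0.0436 from limma).

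Markers of other epithelia were counted too, beside the 17.3% and 11.3% of all genes tested that were called lower and higher. The mesothelial count of higher genes and the trophoblast count of lower genes lie near these shares. Of 9 stratified epithelium markers, 6 were tested and 3 were lower, *Krt5*, *Krt14* and *Trp63*, with sums of 1296 and 957 in WT and 618 and 615 in those labelled *Taf4a*-/-. All 3 were already counted above, among the other keratins or the other regulators, so they are no separate result. *Krt5* reached the minimum mean of 10 only through WT, as did *Msln* among the mesothelial markers, with a *Taf4a*-/- mean of 9.94. Of 9 mesothelial markers, 8 were tested, 2 were lower and 1 was higher, and the sums overlapped (6484 and 5770 in WT, 5763 and 7761 in those labelled *Taf4a*-/-). Of 12 trophoblast markers, 9 were tested, 1 was lower and none was higher, with sums of 5728 and 3010 in WT and 7033 and 8765 in those labelled *Taf4a*-/-.

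The remaining lists were counted in the same way. Of 10 fibroblast markers, 9 were lower and none was higher (sums of 464144 and 649327 in WT, 68333 and 83136 in those labelled *Taf4a*-/-). Of 8 primed epiblast markers, 7 were tested, 2 were higher and none was lower (6375 and 1808 in WT, 10720 and 8477 in those labelled *Taf4a*-/-). *Pou3f1*, a defining primed epiblast marker, was too low to be tested, at 0 in both WT libraries and at 1.96 and 0 normalized counts in those labelled *Taf4a*-/-. No other marker of the 8 lists was at 0 in both libraries of a genotype. At an unadjusted p under 0.05, the lists with none called higher had 0 higher genes among the other claudins and the adhesion, visceral endoderm, stratified epithelium and fibroblast genes, 1 among the cardiomyocyte genes and 3 among the trophoblast genes, and the pluripotent and primed epiblast lists had 0 lower genes. Voom also gave 0 in each of these. The part of these cell types in the values of the keratins, claudins and regulators was not tested.

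**Figure D5:**
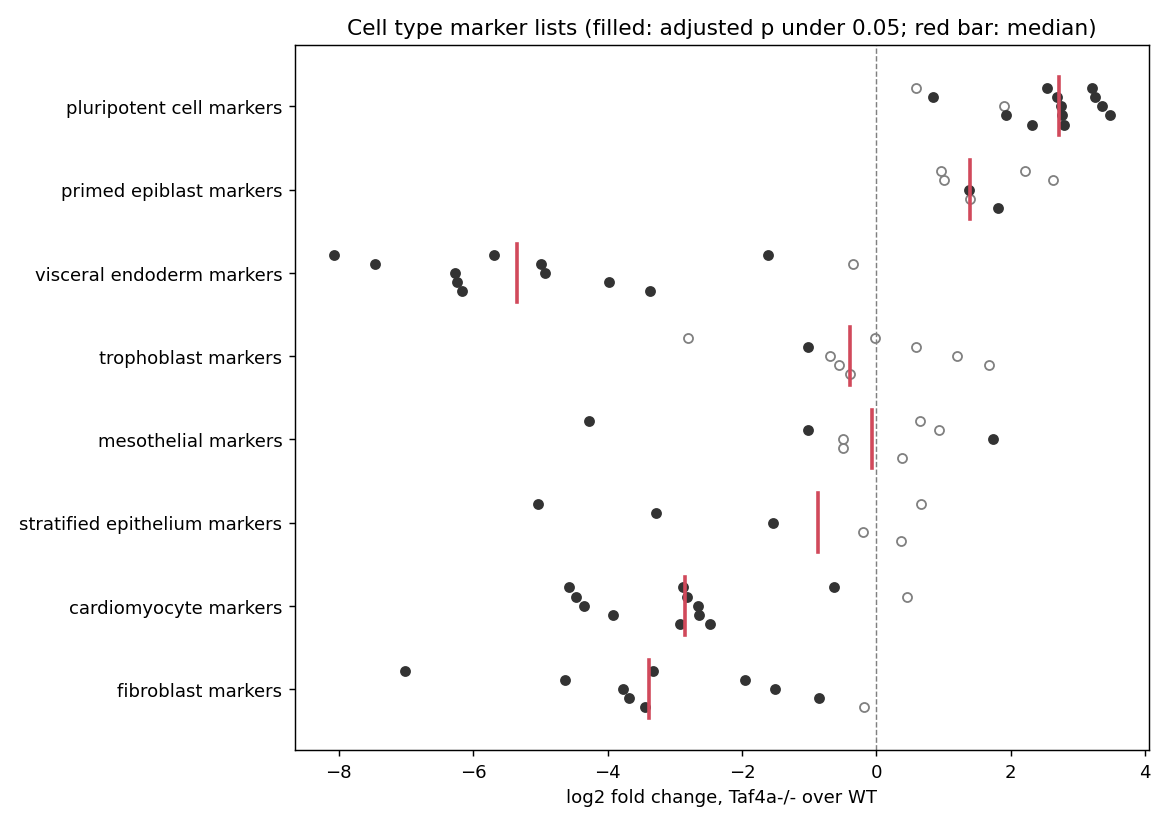
Log2 fold change, *Taf4a*-/- over WT, of each tested gene in 8 cell type marker lists, with filled points for an adjusted p under 0.05 from limma, open points for genes not called and a red bar at each median. The medians of the visceral endoderm (-5.34), fibroblast (-3.39) and cardiomyocyte (-2.85) markers lie below 0 and that of the pluripotent cell markers (2.73) above it. *Apoa4*, *Trf*, *Msln* and *Krt5* reached the minimum mean of 10 only through WT.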

How the data were processed

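Messenger RNA was sequenced from 4 libraries, 2 WT and 2 *Taf4a*-/-. The authors mapped reads to mm9 and deposited, for each gene, the read count divided by 1 DESeq size factor per library, and the other deposited columns identify the gene. The submitters' processing notes name CASAVA 1.8, TopHat 1.3.3, HTSeq 0.5.3p1 and DESeq. The annotation release and the treatment of reads with several matches are not given in the sources used here.

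All values were whole multiples of 1 read (100% within 0.1 read), so depth was recovered. Floors of 3 reads cover counting error only. Limma 3.58.1 (R 4.3.3) was run with lmFit and a trended eBayes on log2(value + 1) of genes whose mean reached 10, a scale that understates changes of low genes. P-values measure the spread between libraries of a genotype, drawn towards a trend over all genes. Each line is taken to have given 1 library, so differences between lines, cultures and library preparations cannot be told apart. Lengths are the union of exons of the NCBIM37 GENCODE annotation, in which all 24637 identifiers were found. No count model was run, and voom fits a weighted linear model to log2 values of the recovered reads. The deposited table uses decimal commas, and its unit was recorded as other.

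The 10 genes, the gene lists and the alternatives were chosen with earlier results of these data known, so no list is independent evidence. Of each list of related genes, up to 4 called genes with the largest fold change were named, and exceptions are marked or stand beside the gene they relate to. Some genes that this rule or the search for similar profiles would name are not reported here. The test was checked on simulated data, and plots were made in matplotlib 3.10.9 under Python 3.11.15. Same-numbered libraries did not deviate together over all genes (correlation 0.01), so the main fit did not treat them as pairs. This does not exclude a shared effect on some genes. The labels number the libraries without naming their lines.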

Additional observations from a re-analysis of the deposited data

How the results depend on the processing

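Under the 13 alternatives, all 7 called genes kept their direction, and *Krt7* and *Cldn3* stayed called in each. *Cldn4* and *Krt19* each lost their call in 4, with adjusted p from 0.0168 to 0.122 and from 0.00998 to 0.181 (limma). Without the variance trend, 856 of all genes were higher and 1741 lower, against 1906 and 2928, and the genes called were 4 lower of the 10, 5 lower of the other keratins, 1 higher and 1 lower of the tight junction and polarity genes, 6 lower of the adhesion genes, 1 higher and 3 lower of the other regulators, and 1 lower of the repressors. With a mean of at least 50, 2 other claudins were lower, and 0 other keratins were higher and 3 lower. Quantile normalization moved the median of all genes to 0.11 and the share of calls that were higher from 39.4% to 52.2% (2676 against 2448), left 2 repressors lower, and put *Krt8* at 0.0081. With equal totals *Krt8* was at 0.046 and *Krt18* at 0.0092 on the log2 scale. The cause of these moves was not tested, except that the higher minimum tests fewer genes.

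Leaving out 1 library at a time, where the lone line is assumed to vary like the others, gave 624 to 2476 of all genes higher and 1222 to 3038 lower, and 2 to 7 of the 10 lower. It gave 4 to 5 other claudins lower, 0 to 1 other keratins higher and 3 to 7 lower, 0 to 3 tight junction genes higher and 0 to 5 lower, 3 to 12 adhesion genes lower, 1 to 2 other regulators higher and 3 to 8 lower, and 1 to 2 repressors higher and 1 to 3 lower. The log2 fold change of *Krt8* ran from -0.16 to 0.13, of *Krt18* from -0.20 to 0.10 and of *Grhl2* from -0.69 to 0.11.

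With the replicate block, 1536 genes were higher and 2657 lower, 6 of the 10 were lower, and *Krt19* alone among the 10 changed its call (adjusted p = 0.0507 from limma). Limma's voom on the recovered reads, chosen after seeing the data, gave 1813 higher and 2753 lower, and 7 of the 10 lower. The planned edgeR and DESeq2 alternatives were not run. Depth limits the genes at a few reads, such as *Cldn18*, to bounds.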
